A study of Canis lupus familiaris with 7 samples.

Results

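Potassium channels carry the outward current that ends each cardiac action potential and holds the resting voltage of the heart muscle cell. The genes described are those whose symbol starts with KCN, read by every probe set (a small set of oligonucleotides that together read 1 transcript) that carries such a symbol and no other in the platform annotation. KCNJ8 and KCNJ11, the pore subunits of ATP-sensitive channels, were left out with their 4 probe sets. This leaves 77 genes of 15115 with a symbol of their own on the array, read by 110 of 42924 probe sets, in 19 groups by the letter after KCN. Affymetrix arrays read total RNA from the left ventricle of male mongrel dogs, all adult. Controls had 3 samples, which carry the numbers 1, 3 and 4. Low salt had 4, with the numbers 1 to 4, from dogs fed 0.5% sodium chloride over 2 weeks. The sources used here do not give the diet of the controls, the exact age or any pooling of RNA. The design text puts 10 dogs on the diet and compares 3 control with 4 low-salt dogs, without saying how the 4 were taken from the 10. The sample labels name no animal, so every p-value speaks of the spread among these 7 arrays.

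The family has several branches with different work. Voltage-gated pore subunits (KCNA to KCND, KCNH, KCNQ) open on depolarisation and repolarise the cell, and the KCNE and KCNIP proteins and the KCNAB beta subunits assemble with them and tune their gating. Inward rectifiers (KCNJ) set the resting voltage, tandem-pore channels (KCNK) carry background current, and the KCNM and KCNN channels open with intracellular calcium. KCNF, KCNG, KCNS and KCNV subunits form no channel on their own and modify others. In the ventricle the best known members are KCND3 with KCNIP2 for the transient outward current, KCNH2 and KCNQ1 for the delayed rectifiers, and KCNJ2 for the inward rectifier.

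No potassium channel probe set passed the test over the whole array. The smallest p was that of KCNJ14, an inward rectifier of the same branch as KCNJ2 (limma adjusted p = 0.184). It was lower in every low-salt sample than in any control, as were 5.68% of all tested probe sets. The 2 probe sets with the highest signal, those of KCNA5 and KCNIP2, overlapped between the groups. The 95% confidence interval lay wholly within a 2-fold change for only 13 of the 54 members tested.

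The tissue and RNA of the samples were checked in the same tables. All 8 heart muscle markers were tested, and their summed deposited intensity was 54440 to 81270 in controls and 54870 to 71560 in low salt. Over 13 marker lists 59 of 83 markers were tested, 4 were higher and 3 lower at an unadjusted p under 0.05, and 0 passed the adjusted p. The share at the unadjusted p was 11.9%, against 11.0% of all tested probe sets. Of the atrial markers 3 of 5 were tested: MYL4 (-2.14 ± 0.65, SE) and NR2F2 (-0.75 ± 0.22) were among the 3 lower ones, and MYL7 stood at 0.39 ± 0.21, while the summed intensity was 3065 to 7579 in controls and 3590 to 6068 in low salt. The summed intensity of the groups overlapped in 12 lists. It did not for T lymphocyte markers (6 of 6 tested), at 349.4 to 711.1 in controls and 91.0 to 300.8 in low salt, with a median change of -0.115. There CD4 stood at -1.95 ± 0.46 (SE, limma adjusted p = 0.121), and the other 5 lay between -0.32 (CD3E) and 0.12 (LCK). Smooth muscle markers (7 of 7 tested, median change 0.38, summed intensity 1336 to 1919 in controls and 1601 to 2502 in low salt) overlapped in their sums. Of this list CNN1 (1.19 ± 0.35, SE) and DES (0.75 ± 0.27) were among the 4 higher markers. The others were C1QB of the macrophage list (1.01 ± 0.26) and TNNI3 of the heart muscle list (0.25 ± 0.11). Neuronal and glial markers (7 of 9 on the array, 3 of them tested with a median change of -0.11) summed to 137 to 252.5 in controls and 52.9 to 151.3 in low salt. All these sums are of deposited values, over every marker the array names, also those too dim to be tested. In the deposited values the array medians of 3 low-salt samples lay below those of every control. What that adds to the sums was not tested. RNA integrity was read from the ratio of 3' to 5' signal of control probe sets, by 2 pairs each for GAPDH and ACTB. The first GAPDH pair averaged 2.58 ± 0.18 (SD) over controls and 2.27 ± 0.17 over low-salt samples (two-sided exact permutation test, p = 0.0571, the lowest possible with 35 splits). The second GAPDH pair averaged 29.3 and 17.7, with the same p. The ACTB pairs averaged 0.957 and 0.763 (exact permutation p = 0.4), and 1480 and 2360 (exact permutation p = 0.457). The part of these in the potassium channel values was not tested.

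Most of the family gave little signal in the ventricle. Of the 110 probe sets, 54 had a mean signal above the dimmest 33.3% of the array and were tested, which is 49.1% against 66.7% of all probe sets, a share the filter fixes. The other 56 were too dim, and 40 of the 77 genes had no probe set that could be tested. The median probe set of the family stood at the 32.7th percentile of signal and at a median deposited intensity of 12, against 27 over all probe sets. The tested probe sets were split by signal into 3 bands of equal size. Only 2 members, 1.82%, lay in the bright band, which holds 22.2% of the array. Brightness depends on the probes as well as on the RNA, so these levels rank probe sets and not transcripts, and in bulk tissue fewer cells of a type and less RNA per cell cannot be told apart.

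The source of the probe sets went along with the signal. Of the 33 members with a source accession in the platform annotation 69.7% were tested, and of the 77 without one 40.3%. For all probe sets with 1 gene symbol the same shares were 79.1% and 60%. Other channel families were also dim: 27 of 46 calcium channel (CACN) and 6 of 22 sodium channel (SCN) probe sets were tested, and 0 of either lay in the bright band.

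**Figure D1:**
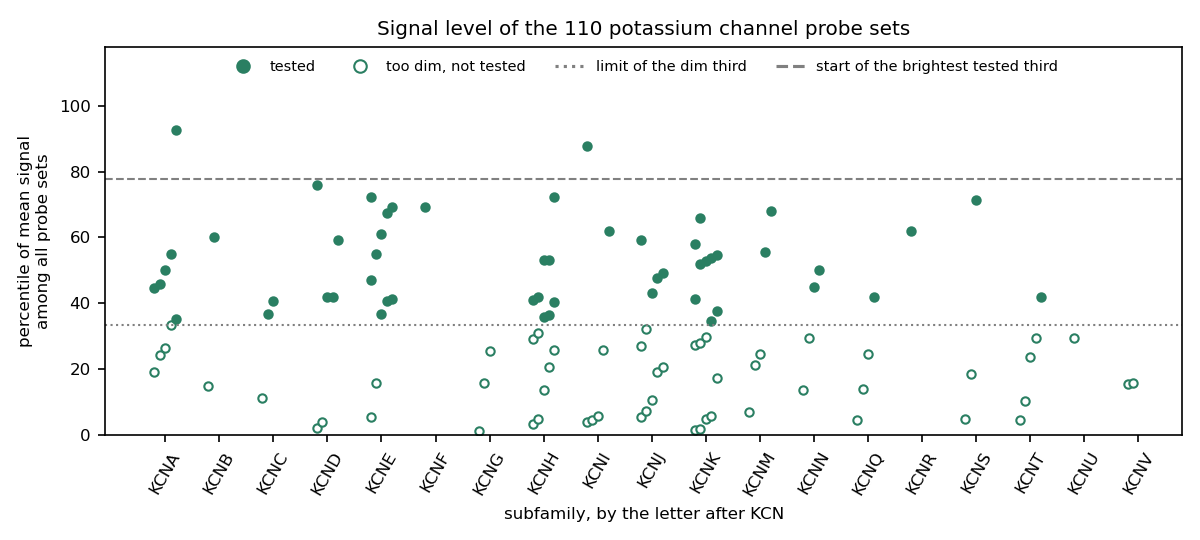
Percentile of the mean signal over all 7 arrays (vertical axis) for each of the 110 potassium channel probe sets, by the letter after KCN (horizontal axis). Filled points were tested and open points were too dim; 2 points, of KCNA5 and KCNIP2, lie above the dashed line where the bright band begins.

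The branches differed in how much of them could be tested. All 3 KCNG, both KCNV and the KCNU1 probe sets were too dim, as were 7 of 11 KCNJ, 7 of 15 KCNH, 8 of 17 KCNK, 4 of 5 KCNT and 3 of 4 KCNQ probe sets. In the KCNE branch 9 of 11 were tested and in the KCNA branch 6 of 10. Several channels known from the heart were among the dim ones: both probe sets of the inward rectifier KCNJ12, KCND2, the stretch-activated KCNK2, the acetylcholine-gated KCNJ3 and the large calcium-activated channel KCNMA1. Of 41 channels listed for a known part in the heart, the array names 34, and 23 of these were tested by their brightest probe set.

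Against the controls, 0 of the 54 tested members passed an adjusted p of 0.05 by limma, where 0.346% of all tested probe sets did. The smallest adjusted p was 0.184. At the threshold in the design text of the series, an unadjusted p of 0.05 with a 2-fold change, 2 members passed, both lower in low salt, where 4.40% of all tested probe sets passed in either direction, 2.73% as lower and 1.67% as higher. The same 2 members were those with an unadjusted p under 0.05, against 11.0% of all. By the methods' t-test 0 members passed after adjustment, where 4 of all 28616 probe sets did. By the same test 3 had an unadjusted p under 0.05, or 5.56% against 10% of all, and 1 of these (KCNJ14) a 2-fold change as well, or 1.85% against 3.04%. The groups did not overlap in 3 members, or 5.56% against 10.8% of all tested probe sets. Of these 2 were lower, where 5.68% of all were, and 1 was higher, where 5.13% were. Among these shares of members only that of the lower ones with 2-fold, 3.70%, exceeded the share of the whole array.

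Changes here are low salt minus control in log2(signal + 16) after quantile normalization, a scale whose floor is 4 and which understates the change of dim transcripts. Over the 54 members 29 changes were above 0 and 25 below, with a median of 0.06 against 0.04 for all tested probe sets. The quartiles were -0.36 and 0.25, and the extremes -1.49 and 0.91. By signal, the 35 members of the dim band had a median change of 0.08, the 17 of the middle band 0.06 and the 2 of the bright band -0.21. For all probe sets of these bands the medians were -0.01, 0.07 and 0.04. The median within-group SD of the members was 0.54, against 0.42 for all tested probe sets.

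The changes were measured with limited precision. The 95% confidence interval of a member's change reached 0.86 to either side in the median, from 0.57 to 1.31. Over all tested probe sets the median was 0.75. For 2 members the interval excluded 0. The split of the family between directions also moved with the scaling of the arrays: with the values as deposited 47 of 56 tested members were below 0 (median -0.35, against -0.18 for all tested probe sets), and with array medians set equal 25 of 56 were (median 0.08, against 0.26). In the deposited values the array medians were 5.57 to 6.07 in controls and 5.24, 5.23, 5.91 and 5.14 in low-salt 1 to 4, so that 3 low-salt arrays lay below every control. At the design text's threshold the 0 higher and 2 lower members became 0 and 6 with the values as deposited, and 1 (a KCND3 probe set) and 1 (KCNJ14) with array medians set equal. In these settings the members' share was 10.7% and 3.57%, and that of all tested probe sets 7.56% and 5.9%. What the array medians contribute to any one change was not tested.

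**Figure D2:**
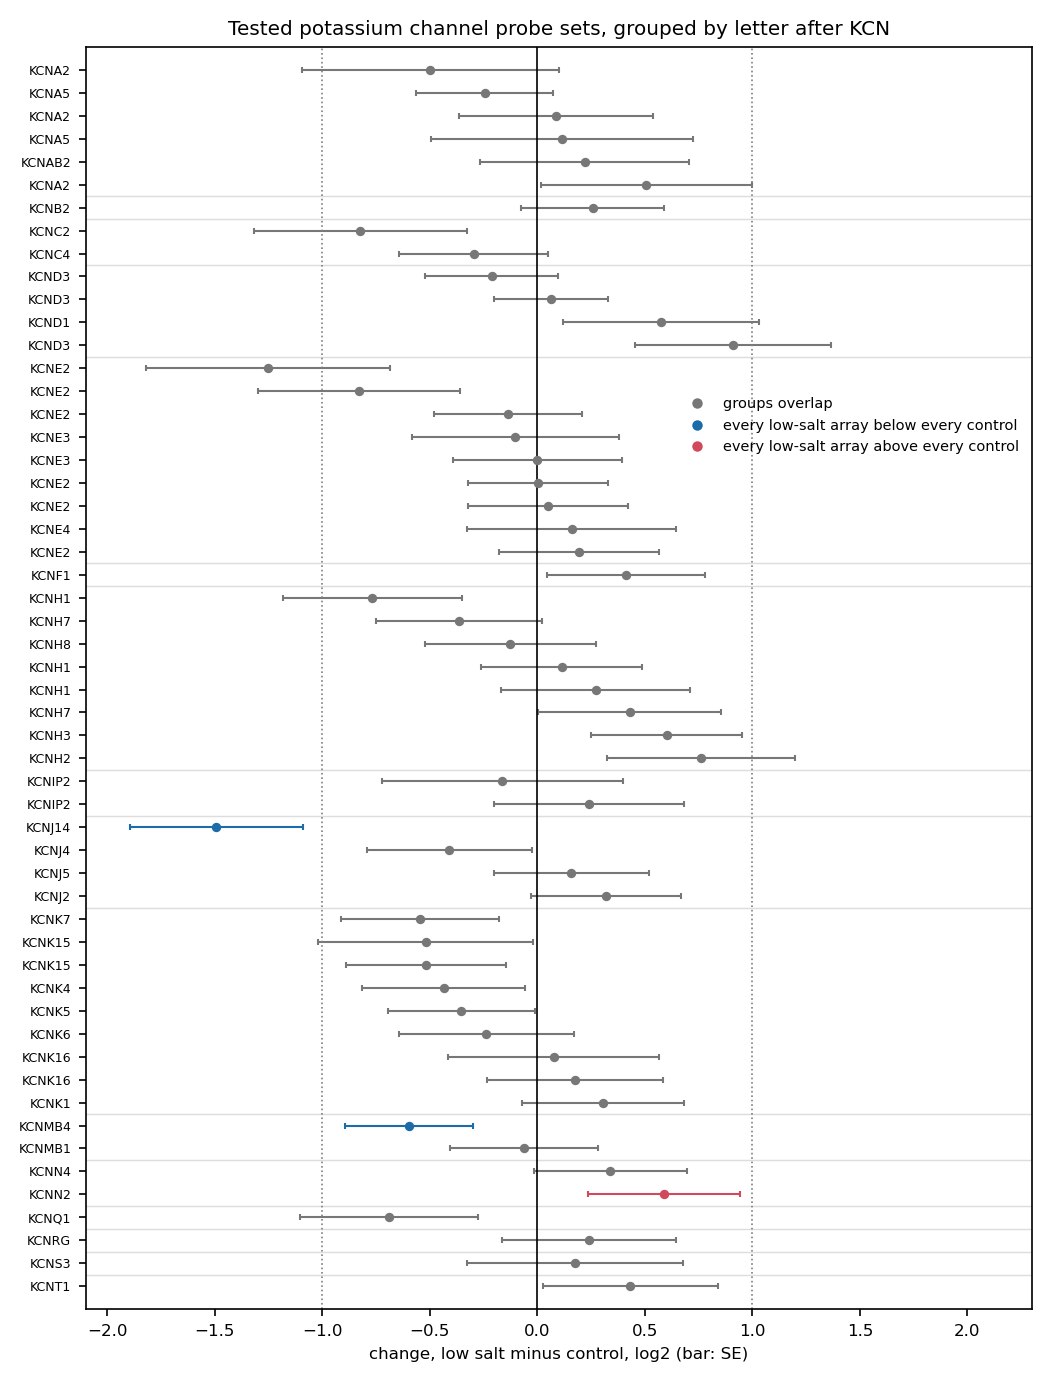
Change with its SE (horizontal axis, log2, low salt minus control) for each of the 54 tested probe sets, grouped by the letter after KCN. Dotted lines mark a 2-fold change; blue marks KCNJ14 and KCNMB4, whose low-salt values all lay below the controls, and red marks KCNN2, whose low-salt values all lay above.

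KCNJ14 is an inward rectifier, a pore subunit that passes potassium more easily into the cell than out of it. Its signal was 6.50, 6.67 and 6.68 in controls 1, 3 and 4, and 5.77, 4.35, 5.77 and 4.60 in low-salt 1 to 4. The controls lay close together, all 4 low-salt samples lay below them, and low-salt 2 and 4 were near the floor. The deposited intensities were 89.2, 84.1 and 112.6 in controls and 27.1, 2.65, 53.8 and 4.66 in low salt. The group values were 6.61 ± 0.10 (SD, n = 3) and 5.12 ± 0.75 (SD, n = 4), a change of -1.49 ± 0.40 (SE, 95% confidence interval -2.36 to -0.63), with an unadjusted p of 0.00237 and a limma adjusted p of 0.184. The change was below 0 under all 15 alternatives that kept the probe set, from -2.35 with an offset of 1 to -0.78 with an offset of 64, where it was less than 2-fold, and its adjusted p ran from 0.101 to 0.734. With 1 array left out it lay between -1.71 and -1.23. KCNJ14 has no other probe set among the members.

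None of the other inward rectifiers had an unadjusted p under 0.05. KCNJ2, the main inward rectifier of the ventricle in textbook accounts, gave 4.89, 5.47 and 4.82 in controls and 5.40, 5.27, 5.54 and 5.31 in low salt. Its groups overlapped, and the change was 0.32 ± 0.35 (SE), with a 95% interval from -0.43 to 1.07, turning to -0.02 with the values as deposited. KCNJ4, of the same branch, gave 5.50, 5.66 and 5.65 in controls and 5.39, 4.40, 5.80 and 5.19 in low salt, a change of -0.41 ± 0.38 that rested largely on low-salt 2 and was -0.15 without it. KCNJ5, a subunit of the acetylcholine-gated channel, differed by 0.16 ± 0.36 and turned sign with the values as deposited and without low-salt 3. For KCNJ12, whose 2 probe sets lay below the signal filter, the means differed by -0.12 and 0.32. In the second of these every low-salt value exceeded every control, but the controls ran from 4.10 to 4.23 and the lowest low-salt value was also near 4.23. The renal channel KCNJ1 (-0.57), the glial channel KCNJ10 (-0.10) and KCNJ3 (0.08), KCNJ13 (0.23) and KCNJ15 (-0.35) were too dim as well, and these are differences of means without a test.

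KCNE2, a small single-span subunit that joins KCNH2, KCNQ1 and other pores, is read by 7 probe sets and was the other gene past the design text's threshold, by 1 of them. That probe set gave 6.37, 7.03 and 4.33 in controls and 4.52, 4.46, 4.16 and 5.50 in low salt. Control 4 lay among the low-salt values, so the groups overlapped. The change was -1.25 ± 0.57 (SE), with an unadjusted p of 0.0452 and a limma adjusted p of 0.441. Without control 4 the change was -2.04 with a limma adjusted p of 0.0451, the only member past an adjusted p of 0.05 in any setting tried. In that setting 290 of all 28616 tested probe sets passed as well, against 99 with all 7 arrays. Without control 1 the change was -1.02 with an unadjusted p of 0.146.

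None of the other 6 KCNE2 probe sets had an unadjusted p under 0.05. A related one, whose name marks probes that may bind other transcripts too, gave 6.34, 5.95 and 4.38 in controls and 4.45, 5.10, 4.46 and 4.91 in low salt, again with control 4 among the low-salt values, and differed by -0.83 ± 0.47 (SE). Without control 4 it stood at -1.40 with an unadjusted p of 0.00393, and with the values as deposited at -1.12 with an unadjusted p of 0.0371. The brightest KCNE2 probe set gave 6.34, 6.81 and 6.18 in controls and 6.03, 6.21, 6.47 and 7.07 in low salt, a change of 0.00 ± 0.33. Of the remaining 4, the 3 tested ones differed by -0.14, 0.19 and 0.05, and the dim one differed by 0.07. The 95% interval of the brightest one ran from -0.70 to 0.70 and that of the first from -2.47 to -0.03, and the difference between probe sets was not tested.

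The remaining KCNE subunits lay near 0. The change of KCNE3 was -0.10 ± 0.48 and -0.00074 ± 0.39 (SE) in its 2 probe sets. KCNE4, which can damp KCNQ1 current, differed by 0.16 ± 0.49, and was -0.28 without control 3. KCNE5 was too dim, with a difference of -0.18.

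**Figure D3:**
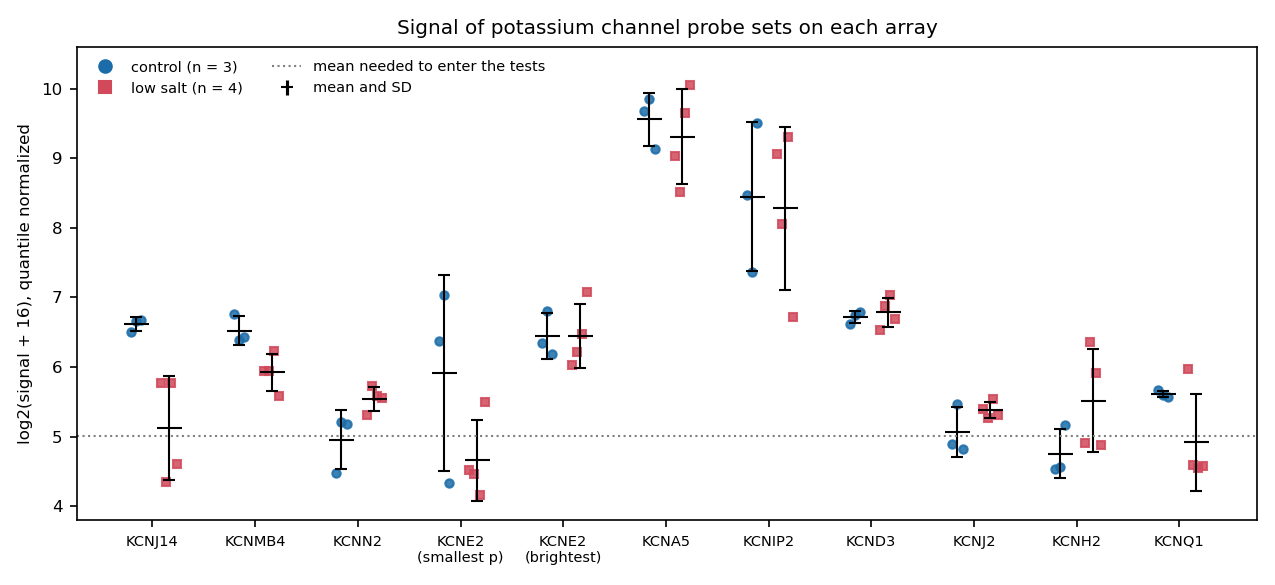
Normalized signal (vertical axis, log2 of signal + 16) on each array for 11 potassium channel probe sets, with group means and SD; blue circles are the 3 controls and red squares the 4 low-salt samples. KCNJ14 and KCNMB4 are separated downward and KCNN2 upward, while the bright KCNA5 and KCNIP2 overlap; the dotted line is the mean signal of 5.004 needed to enter the tests.

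Among the voltage-gated pores of repolarisation, the brightest probe set was that of KCNA5, which carries the ultrarapid delayed rectifier and is best known from the atrium. It gave 9.69, 9.86 and 9.13 in controls and 9.03, 8.51, 9.66 and 10.05 in low salt. The groups overlapped fully, with a change of -0.25 ± 0.32 (SE) and a 95% interval from -0.93 to 0.43. The sign turned with array medians set equal (0.29) and without low-salt 2 (0.02). The second KCNA5 probe set, far dimmer, spread from 4.29 to 7.15 in controls and differed by 0.11 ± 0.61. The 3 probe sets of KCNA2 differed by -0.50, 0.51 and 0.09, with SE from 0.45 to 0.60. KCNA3, a channel of T lymphocytes, was too dim and differed by -0.55.

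The transient outward channel was read by several probe sets of unequal precision. The brightest KCND3 probe set, for its pore, gave 6.62, 6.74 and 6.79 in controls and 6.54, 6.88, 7.03 and 6.70 in low salt. These values were close in both groups, and the change of 0.06 ± 0.27 (SE, 95% interval -0.51 to 0.64) was the most precise of the family, though its sign turned with the values as deposited (-0.23) and without low-salt 3 (-0.02). A second KCND3 probe set stood at 5.88 ± 0.03 (SD, 3 controls) and 5.67 ± 0.25 (SD, 4 low-salt samples), with a change of -0.21 ± 0.31. Its groups overlapped there but not as deposited, at 54.2, 41.8 and 69.4 in controls and 34.3, 26.1, 37.0 and 19.4 in low salt. Another, with probes that may bind other transcripts, gave 4.99, 4.27 and 4.83 in controls and 4.50, 5.71, 5.74 and 6.48 in low salt and differed by 0.91 ± 0.46. This passed the design text's threshold with array medians set equal (1.05) and without low-salt 1 (1.30). The fourth KCND3 probe set was dim and differed by 0.11.

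KCNIP2, the calcium-binding partner of KCND3, had the other bright probe set. It gave 8.48, 7.36 and 9.51 in controls and 9.06, 8.06, 9.30 and 6.72 in low salt. The SD was 1.07 in controls and 1.17 in low salt, and the change of -0.16 ± 0.56 (SE) had an interval from -1.37 to 1.04. It was -0.70 without control 3, and 0.37 without control 4. The second tested KCNIP2 probe set gave 5.27, 5.41 and 6.52 in controls and 6.70, 5.84, 6.36 and 4.99 in low salt, with a change of 0.24 ± 0.44. In both, control 4 was the highest control and low-salt 4 the lowest low-salt sample. KCND1 differed by 0.57 ± 0.46, and the dim KCND2 and KCNIP1, KCNIP3 and KCNIP4 differed by -0.07, -0.03, 0.17 and 0.15.

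The delayed rectifier pores KCNH2 and KCNQ1 were dim and differed in opposite directions, neither past a threshold under the main processing. KCNH2, the channel blocked by many arrhythmia-causing drugs, gave 4.54, 4.56 and 5.17 in controls and 4.91, 6.36, 5.91 and 4.88 in low salt, a change of 0.76 ± 0.44 (SE, limma adjusted p = 0.559). Low-salt 2 and 3 lay above every control, while low-salt 1 and 4 did not. With array medians set equal its change was 0.91 with an unadjusted p of 0.0481. The second KCNH2 probe set was dimmer and differed by -0.05. KCNQ1, the slow delayed rectifier, gave 5.66, 5.59 and 5.57 in controls and 5.97, 4.59, 4.55 and 4.57 in low salt. Here 3 low-salt samples lay near the floor, about 1 log2 unit below the tightly placed controls, and low-salt 1 lay above the controls. The change was -0.69 ± 0.41 (adjusted p = 0.571), and without low-salt 1 it was -1.07 with an unadjusted p of 0.0176. With the values as deposited it was also -1.07 (limma unadjusted p = 0.0284), and both passed the design text's threshold. The other KCNQ1 probe set, too dim to be tested, differed by -0.01.

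Other KCNH genes, better known from the brain, differed in both directions without passing under the main processing. KCNH3 differed by 0.60 ± 0.35 (SE) and its dim second probe set differed by 0.49. The 3 KCNH1 probe sets differed by 0.27, -0.77 and 0.11, the 2 tested ones of KCNH7 by 0.43 and -0.36, and KCNH8 by -0.13. The dim KCNH7 ones differed by -0.82 and -0.11. The KCNH1 probe set at -0.77 passed the design text's threshold without control 3 (-1.06, limma unadjusted p = 0.0393). It also passed with the values as deposited (-1.11, limma unadjusted p = 0.0342), as did a KCNH7 probe set. KCNC2 (-0.82 ± 0.50) and KCNC4 (-0.30 ± 0.34), pores of fast-firing neurons, and KCNB2 (0.26 ± 0.33) did not pass. Among the modifying subunits KCNF1 differed by 0.41 ± 0.37, or 0.86 with an unadjusted p of 0.0219 without control 1, and KCNS3 by 0.18 ± 0.50. For KCNS3 control 4, at 4.71, stood far below the other 2 controls (6.83 and 7.30), and the change without control 4 was -0.64. KCNRG, a regulator of channel assembly and not itself a channel, differed by 0.24 ± 0.40. The beta subunit KCNAB2 differed by 0.22 ± 0.49 and was -0.20 without control 1. KCNT1, a sodium-activated channel, differed by 0.43 ± 0.41 in its tested probe set. Its 3 dim ones differed by -0.58, 0.16 and -0.04.

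Of the calcium-activated channels, 2 of 5 KCNM and 2 of 4 KCNN probe sets were tested. KCNMB4, a beta subunit that slows and shifts the gating of the large calcium-activated channel, gave 6.75, 6.38 and 6.44 in controls and 5.95, 5.94, 6.24 and 5.58 in low salt. All 4 low-salt values lay below the controls, low-salt 3 most nearly reaching them. The change was -0.60 ± 0.30 (SE), with a 95% interval from -1.24 to 0.04 and a limma adjusted p of 0.489. It was below 0 in all 15 alternatives, and the groups overlapped with the values as deposited, where the change was -0.98 with an unadjusted p of 0.0227. KCNMB1, the beta subunit of smooth muscle, differed by -0.06 ± 0.34, and the pore KCNMA1 was dim and differed by -0.07.

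KCNN2, a small-conductance calcium-activated pore, was the tested member higher without overlap. It gave 4.47, 5.21 and 5.19 in controls and 5.32, 5.73, 5.59 and 5.55 in low salt. All low-salt values lay above the controls, of which control 1 was the lowest. The change was 0.59 ± 0.35 (SE, limma adjusted p = 0.571), 0.34 without control 1, and with the values as deposited it was 0.23 and the groups overlapped. KCNN4, the intermediate-conductance channel, differed by 0.34 ± 0.36, and the dim KCNN1 and KCNN3 differed by 0.68 and 0.34. With the values as deposited the difference for KCNN4 was -0.08.

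Among the tandem-pore channels, 6 of 9 tested probe sets were below 0 and 3 above, with a median of -0.35 and changes from -0.55 to 0.31. None had a p under 0.05 or groups apart. KCNK7 gave 5.59, 5.66 and 5.29 in controls and 4.73, 5.59, 4.80 and 4.74 in low salt, a change of -0.55 ± 0.37 (SE) with low-salt 2 among the controls. With the values as deposited the groups of KCNK7 did not overlap, at -0.92 with an unadjusted p of 0.0407. The 2 probe sets of KCNK15 both differed by -0.52 (SE 0.50 and 0.37), but low-salt 1 was high in the first (6.20) and low in the second (4.88). KCNK1, a weak background channel, differed by 0.31 ± 0.38. KCNK5 differed by -0.35 ± 0.34, and KCNK6 by -0.24 ± 0.41. The change of KCNK4 was -0.44 ± 0.38, and the 2 tested probe sets of KCNK16 gave 0.17 and 0.08. KCNK13, too dim to be tested, gave 4.42, 4.41 and 4.52 in controls and 5.01, 5.49, 5.25 and 4.91 in low salt, without overlap and with a difference of 0.71. KCNMB2 was the other dim member with groups apart besides KCNK13 and KCNJ12, at -0.44, a difference that came mostly from control 1 (5.34).

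Probe sets of the same gene often differed in sign. Of the 77 genes 18 have more than 1 probe set, and in 11 of these the differences of means fell on both sides of 0. The widest spans were those of KCNE2 (1.45), KCNH7 (1.25) and KCND3 (1.12). In 7 genes all probe sets lay on 1 side, among them KCNH3 (0.49 and 0.60), KCNK1 (0.24 and 0.31), KCNB2 (0.26 and 0.395) and KCNK15. Probe sets of a gene read the same RNA and are not replicates of the diet.

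**Figure D4:**
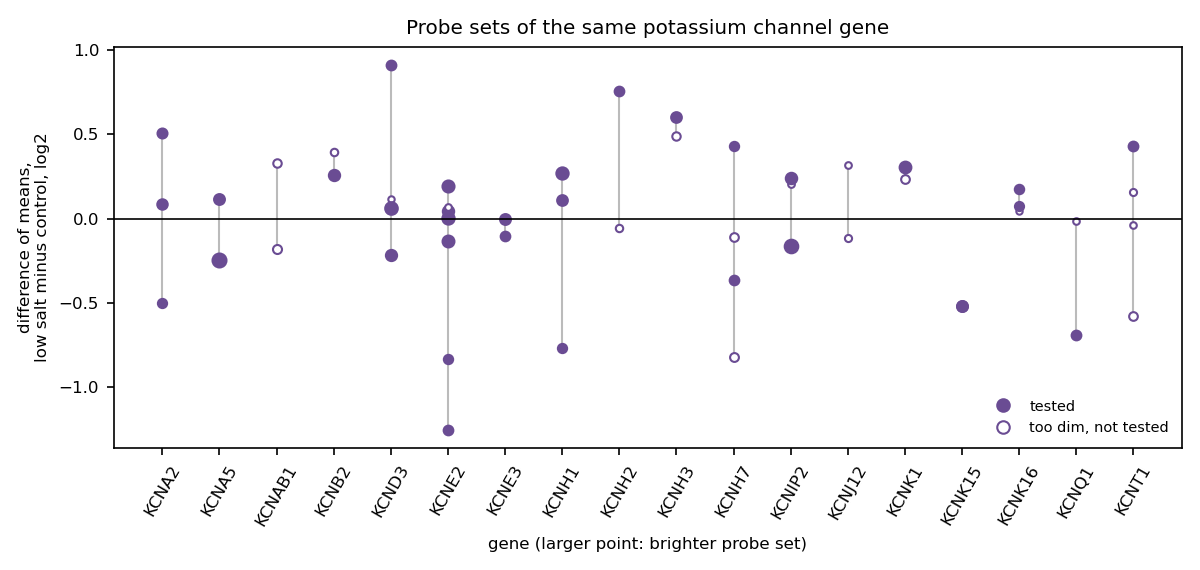
Difference of group means (vertical axis, log2, low salt minus control) for every probe set of the 18 genes with more than 1 (horizontal axis); larger points are brighter and open points were too dim to be tested. KCNE2 runs from -1.25 to 0.19, and its largest points lie near 0.

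Genes that anchor, modify or act beside these channels were read from a separate list, by their brightest probe set. The list holds 71 genes, of which the array names 62 and 50 could be tested, with a median change of -0.0058. By limma 0 passed an adjusted p of 0.05, and at an unadjusted p under 0.05 stood 2 higher and 5 lower. That is 14% of those tested, near the 11.0% of all tested probe sets, so the count says nothing particular of the list. The lower ones were PRKACB, a catalytic subunit of protein kinase A (-1.59 ± 0.40, SE), DPP10, a partner of KCND pores (-1.30 ± 0.45), the transcription factor NFATC3 (-1.13 ± 0.36), ABCC9, the regulatory subunit of ATP-sensitive channels (-0.55 ± 0.25), and the Z-disc protein ACTN2 (-0.28 ± 0.13). The higher ones were IRX3 (0.88 ± 0.33), a transcription factor of the conduction system, and the membrane anchor ANK3 (0.30 ± 0.12). DPP6, the other KCND partner of this type, differed by -0.06, and the KCNQ1 anchor AKAP9 by -0.12.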

How the data were processed

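The deposited file holds 1 linear intensity per probe set and array, which the authors made with GCOS per the submitters' processing notes. Version, probe summary method and genome build: not given in the sources used here. All arrays had been scaled alike, to trimmed means (2%) between 150 and 150.1.

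Samples were grouped by title. From the deposited intensities log2(value + 16) was computed and quantile normalized, since array medians differed by 0.93. The 111 array-maker controls and the dimmest 33.3% of the other 42924 probe sets by mean over all arrays were left out, and 28616 were tested for low salt minus control, with no covariate, using limma 3.58.1 (lmFit, eBayes with trend; R 4.3.3) and Benjamini-Hochberg adjustment. The pipeline was tested on simulated data. Symbols came from the platform annotation (74 of 77 genes matched the assembly UU_Cfam_GSD_1.0 by gene number, all with the same symbol).

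Named were the 12 tested members of smallest p and those without overlap, 41 known cardiac channels by their brightest probe set, and the brightest of each letter; other members given were chosen after their values were seen. The members and lists were chosen with earlier results of these data known. The methods' t-test is a plain two-sample test on the same values. Alternatives were offsets of 1 and 64, values as deposited, equal array medians, no filter, a filter at the median, array weights, the replicate number as a block, 1 probe set per gene, and each array left out.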

Additional observations from a re-analysis of the deposited data

Results flagged for a closer look

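In 6 of 49 named probe sets 1 low-salt sample stood far from the other 3, by a gap past Dixon's 95% critical value for a group of 4. Chance gives about 1 in 20 for normally distributed values, and over all probe sets, many of them near the floor of the scale, the low-salt group showed such a gap in 8.43%, against 12.2% here. KCNQ1 stood at 5.97 in low-salt 1 (nearest other 4.59) and KCNC2 at 5.82 in low-salt 1 (nearest 4.46). KCNK7 stood at 5.59 (nearest 4.80) and KCNE5 at 5.34 (nearest 4.28) in low-salt 2, and KCNAB2 at 4.36 in low-salt 2 (nearest 5.62). KCNT2 stood at 5.06 in low-salt 4 (nearest 4.33). Of these, KCNT2 and KCNE5 were too dim to be tested.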

How the results depend on the processing

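The count of members past an adjusted p of 0.05 was 0 in every setting but 1, and ran from 0 to 1 with 1 array left out, the 1 being a KCNE2 probe set without control 4. Without control 4 the count over all 28616 tested probe sets was 290, against 99 with all 7 arrays. The 2 members past an unadjusted p with 2-fold became 1 with an offset of 1, without the filter, with the filter at the median, with the replicate block, by the methods' t-test and with 1 probe set per gene, 0 with an offset of 64 and 6 with the values as deposited. With 1 array left out they ran from 1 to 3. The share of all tested probe sets moved as well, from 4.40% to 6.73% with an offset of 1, 0.751% with an offset of 64 and 7.56% with the values as deposited. It was 3.41% without the filter, 3.83% with the filter at the median, 4.15% with the replicate block and 3.04% by the methods' t-test. With 1 array left out it ran from 3.95% to 7.31%. The 2 with an unadjusted p under 0.05 became 1 with an offset of 1, the filter at the median, the replicate block and 1 probe set per gene, 5 without the filter (4.55% against 9.8% of all) and 8 with the values as deposited (14.3% against 13.6% of all), and ran from 1 to 3 with 1 array left out. Of all tested probe sets 7.96% to 13.6% had such a p with 1 array left out. The 3 with groups apart became 6 of 110 without the filter, where 9.91% of all probe sets were apart. With 1 array left out they ran from 4 to 11, where 14.4% to 22.7% of all tested probe sets were apart. The median change of 0.06 became -0.35 on the deposited scale and -0.0099 under array weights, and ran from -0.13 (without control 1) to 0.10 (without control 4). KCNJ14 was among the members past the unadjusted p with 2-fold in every setting but the offset of 64, and with the replicate block its change was -1.24. Of 35 tested named probe sets 18 kept their sign in every alternative that tested them, and for 16 another scaling turned it. All those named for a small p or for groups without overlap were among the 18. That rule favours changes that are large against their SE. The 18 of 35 therefore cannot show how stable the directions of the family were. The labels do not say whether same-numbered samples were paired. Their deviations from group means correlated at 0.07, -0.26 and -0.18 for numbers 1, 3 and 4. With 1 value per number, these cannot show whether the samples were matched or processed together.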
